A study of Homo sapiens with 12 samples.

Results

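HTRA2, the proteins that process or accompany it, and the mitochondrial death factors that share its route into the cytosol were examined at the RNA level in NCM460 cells. The set comprised 10 genes, taken by symbol from a table of 58735 genes. They were HTRA2, its paralog HTRA1, the rhomboid protease PARL, the adaptor HAX1 and the inhibitor-of-apoptosis (IAP) antagonist DIABLO. The IAP protein XIAP, the mitochondrial death factors CYCS, AIFM1 and ENDOG, and APAF1, which cytochrome c joins in the cytosol, completed the set. AUP1 and LOXL3, whose exons overlap those of HTRA2, were read beside them. DIABLO stood under 2 gene identifiers, so the 10 genes filled 11 rows, of which 10 passed the filter of a mean of at least 0.1 FPKM, a read count scaled by gene length and library size, over the 12 libraries.

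NCM460 is a human line that the labels describe as normal colonic epithelium, and 3 libraries were sequenced in each of 4 groups. The medium group received no stimulus, the TNF-α group received the cytokine TNF-α, and a further group received TNF-α together with bufotenidine, the indole compound that the study calls 5-OH-TMT and regards as an HTRA2 ligand. The last group, labelled HTRA2 knockdown, also received TNF-α, and its libraries carry si in their titles. All groups but medium therefore share TNF-α. The labels give neither its dose nor the duration, and which of the study's siRNAs was sequenced is not given. The study describes its sequencing comparison as HTRA2 siRNA against a control siRNA, but no library is labelled as having received the control siRNA. If the TNF-α libraries did not receive it, transfection and loss of HTRA2 cannot be told apart in the knockdown group. Nothing in the labels says that the 3 libraries of a group came from separate cultures, so p-values measure the spread between these libraries, which may be technical.

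HTRA2 is a serine protease of the mitochondrial intermembrane space, where it takes part in protein quality control. When the outer membrane is permeabilized during apoptosis, HTRA2, DIABLO and cytochrome c pass into the cytosol: HTRA2 and DIABLO bind IAP proteins such as XIAP and relieve the block on caspases, while cytochrome c joins APAF1 to form the apoptosome that activates caspase-9. PARL and HAX1 have been linked to HTRA2 maturation in mitochondria, and AIFM1 and ENDOG act in caspase-independent DNA fragmentation.

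Between 31008429 and 37624399 reads lay on genes in each library. Epithelial markers were present (5 of 5 reached 1 FPKM, with KRT8 between 887 and 1315 FPKM), whereas 0 of 7 colonic markers reached 1 FPKM in any library and CDX2, a transcription factor that defines intestinal epithelium, was listed at 0 in all of them. The squamous keratins KRT5 (112 to 184 FPKM) and KRT14 (31.6 to 43.2 FPKM) were present, so the labelled colonic origin was not borne out by these markers. The summed level of 5 leukocyte markers was 0.0711 to 0.727 FPKM in all libraries, and PTPRC, their defining marker, stayed at or below 0.0121 FPKM. The 3 endothelial markers summed to 0.491 to 0.597 FPKM in medium and 1.42 to 1.57 FPKM in TNF-α. They summed to 1.77 to 2.01 FPKM with bufotenidine and 2.21 to 3.62 FPKM in the knockdown, and CDH5 alone passed 1 FPKM. The 5 fibroblast markers summed to at most 1.32 FPKM in TNF-α, at most 1.46 FPKM with bufotenidine and 2.60 to 3.24 FPKM in the knockdown. Again a single gene, COL1A1, passed 1 FPKM. The 3 squamous markers summed to 162 to 178 FPKM in TNF-α, 186 to 191 FPKM with bufotenidine and 195 to 238 FPKM in the knockdown. The part of these markers in the results was not tested. The share of reads on mitochondrially encoded genes ran from 2.95% to 4.68%, with the lowest value in knockdown replicate 2.

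The members ranged from barely detected to strongly transcribed genes. By mean FPKM over the 12 libraries, a scale that divides by gene length, HAX1 was highest at 51.4, followed by CYCS at 32.0, AIFM1 at 17.8, HTRA2 at 12.97, ENDOG at 11.2, XIAP at 4.63, APAF1 at 2.64 and PARL at 2.22. HTRA1 (0.132) and the DIABLO row that passed the filter (0.135) lay far below. The HTRA2 mean includes the knockdown libraries, which averaged 7.28. Its group means were 14.8 in medium, 14.5 in TNF-α and 15.3 with bufotenidine. Ranges over the libraries touched for the neighbours AIFM1 and HTRA2, HTRA2 and ENDOG, APAF1 and PARL, and DIABLO and HTRA1. Within single libraries AIFM1 lay above HTRA2 in all 12. The order of HTRA2 and ENDOG, of APAF1 and PARL, and of DIABLO and HTRA1 differed between libraries and was not settled. HAX1 lay above CYCS in each of the 12 libraries. The lowest HAX1 value (40.4, in the knockdown) lay below the highest CYCS value (41.9, in TNF-α), but these come from different libraries. Bulk RNA gives the average of all cells, so fewer cells expressing a gene and less of its RNA per cell cannot be told apart.

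**Figure D1:**
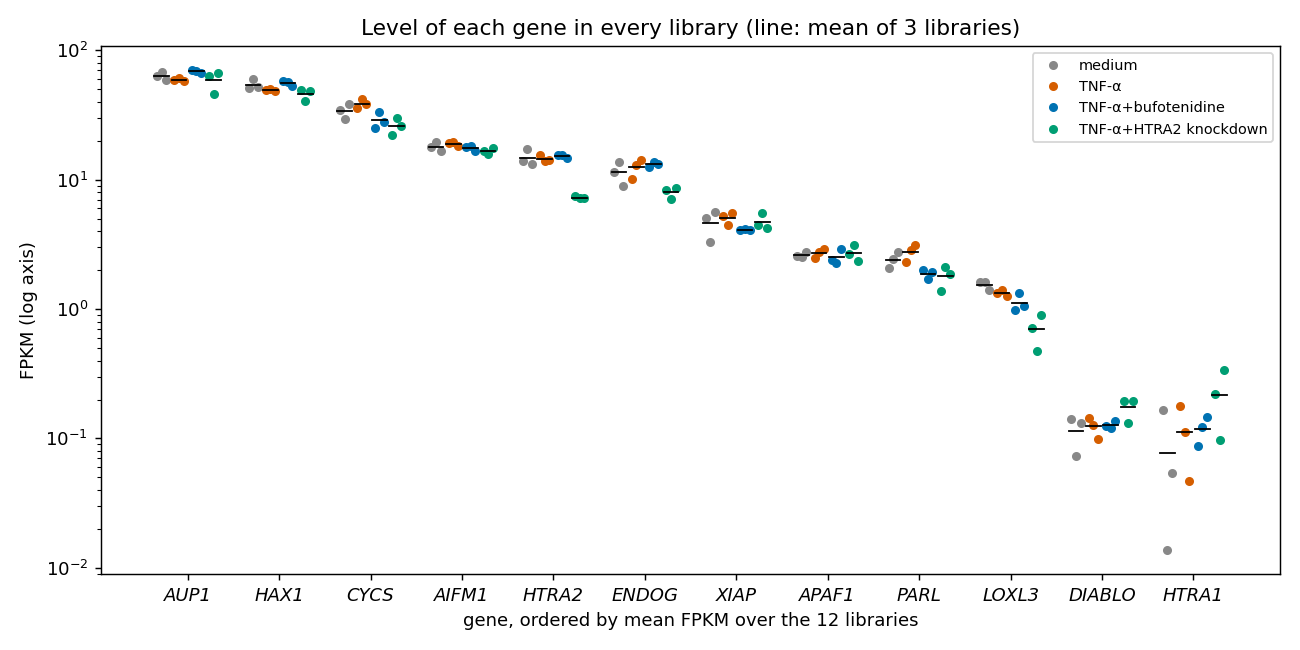
FPKM on a log axis for the 10 genes, AUP1 and LOXL3 in each of the 12 libraries, coloured by group, with a line at each group mean of 3 libraries. HTRA2 separates the knockdown (7.18 to 7.44) from every other library (13.3 to 17.2), while DIABLO and HTRA1 lie below 0.4 throughout.

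Several members share part of their exons with other genes. Genes whose exon bases all lie within exons of another gene of 10 FPKM or more were at 0 in all libraries: this held for 139 of 139 such genes on the opposite strand and for 273 of 273 on the same strand, against 51.7% of 41758 genes that share no exon base. How reads were assigned to genes is not given in the sources used here. These zeros are what counting would give if reads in shared exon bases were credited to neither gene, whatever the strand, and the same is assumed here for genes that share part of their exons. The gene length used for the FPKM counts the shared bases. HTRA2 shares 36.9% of its exon bases, ENDOG 39.2% (with SPOUT1 on the opposite strand), PARL 47.7% (1071 bases with AC131160.1 on the same strand) and APAF1 9.48%. HAX1, XIAP, CYCS and AIFM1 share none. Under that assumption the mean FPKM over unshared bases was 20.6 for HTRA2, 18.5 for ENDOG and 4.23 for PARL, beside 17.8 for AIFM1, so the order of HTRA2, ENDOG and AIFM1 depends on which bases are counted.

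**Figure D2:**
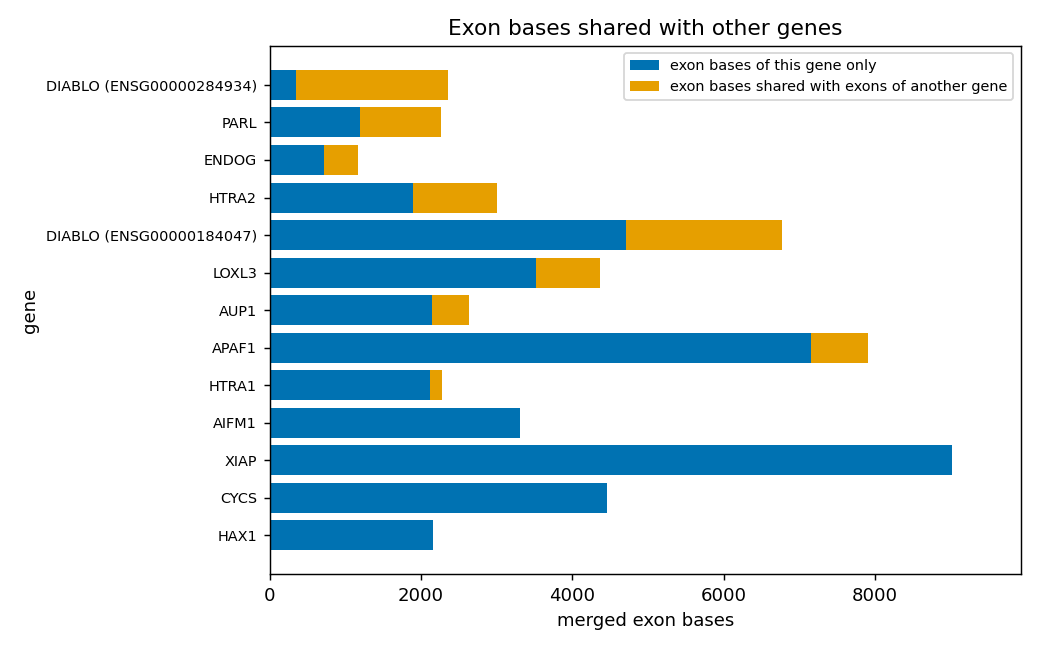
Merged exon bases of each gene, split into bases of that gene only and bases shared with exons of another gene. The second DIABLO row keeps 344 unshared bases of 2351, and PARL keeps 1187 of 2268, while HAX1, XIAP, CYCS and AIFM1 share none.

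DIABLO encodes the IAP antagonist also known as Smac, and its values may understate its level. The rows ENSG00000184047 (chr12:122207663-122226568, minus strand) and ENSG00000284934 (chr12:122207662-122227534, minus strand) share 2006 exon bases, and 772 of 1285 coding bases of the first and 849 of 849 of the second lie in exons of another gene. The first row held 16 to 48 reads per library and the second 0 to 6. PARL (ENSG00000175193, chr3:183829271-183884933, minus strand) shares most of its coding sequence too: 1028 of its 1165 coding bases are shared, and its 113 to 266 reads per library would then come from the remaining 137 coding bases and its untranslated exon bases. These shares do not differ between libraries, so comparisons of one gene between groups use the same bases in every library.

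HTRA2 (ENSG00000115317) lies at chr2:74529377-74533348 on the plus strand, between 2 genes on the minus strand. AUP1 (ENSG00000115307, chr2:74526645-74529939), which encodes a lipid droplet and endoplasmic reticulum protein, overlaps its start, and LOXL3 (ENSG00000115318, chr2:74532414-74555690), which encodes a lysyl oxidase-like enzyme, overlaps its end. The reference transcript used here for HTRA2 has 8 exons and 2370 bases, of which 1374 are coding. AUP1 shares 483 bases with it, all untranslated in HTRA2, and LOXL3 shares 625, of which 259 are coding and 366 untranslated in HTRA2. Of the 1272 coding bases of AUP1 itself, 173 lie in exons of HTRA2. The stretch before the first annotated exon of HTRA2 is shown because it lies entirely within AUP1 exons. It comprises 222 bases at chr2:74529155-74529376 on the plus strand (RefSeq, GRCh38.p14), and capitals mark the 143 bases that code for AUP1 on the other strand.

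HTRA2: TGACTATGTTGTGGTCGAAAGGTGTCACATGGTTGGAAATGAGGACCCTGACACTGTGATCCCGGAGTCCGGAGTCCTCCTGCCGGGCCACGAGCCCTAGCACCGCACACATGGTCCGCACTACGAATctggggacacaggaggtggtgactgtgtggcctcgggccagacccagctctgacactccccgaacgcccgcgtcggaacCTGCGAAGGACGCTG

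The knockdown was first checked in HTRA2 itself. HTRA2 measured 14.0, 17.2 and 13.3 FPKM in medium, 15.4, 14.0 and 14.2 in TNF-α, 15.4, 15.5 and 14.8 with bufotenidine, and 7.44, 7.18 and 7.22 in the knockdown. The knockdown libraries were all below every other library, whereas the other 3 groups overlapped. Knockdown left 50.2% of the mean HTRA2 level of the TNF-α group and 47.7% of that of the bufotenidine group. On the log2(FPKM + 0.1) scale HTRA2 fell by 0.98 (SE 0.087) against TNF-α, with a limma adjusted p of 2.8e-05, and by 1.06 against bufotenidine (adjusted p = 3.7e-05, limma). The number of reads behind these values was 777 to 805 in the knockdown and 1306 to 1695 in the TNF-α libraries.

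Of the overlapping genes, LOXL3 passed the test in the knockdown and AUP1 did not. LOXL3 measured 1.33, 1.40 and 1.27 FPKM in TNF-α and 0.718, 0.470 and 0.906 in the knockdown, with no overlap of the groups. It fell by 0.88 (SE 0.19) against TNF-α on the log2 scale (limma adjusted p = 0.0077). If reads in shared bases were credited to neither gene, this value comes from the 3522 exon bases of LOXL3 that no other gene shares. It rests on 74 to 144 reads in the knockdown and 191 to 213 in TNF-α. Without knockdown replicate 2 the fall was 0.66 (adjusted p = 0.015), with a pseudocount of 1 it was 0.47, and in a fit to the 2 groups alone the adjusted p was 0.052.

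AUP1 measured 58.9, 61.1 and 58.4 FPKM in TNF-α and 63.0, 46.1 and 67.3 in the knockdown, so that the groups overlapped and replicate 2 stood apart. Its log2 difference was -0.035 (95% confidence interval -0.29 to 0.22, limma adjusted p = 0.88), and without knockdown replicate 2 it was 0.13 (adjusted p = 0.22). In medium LOXL3 measured 1.62, 1.61 and 1.40 FPKM and with bufotenidine 0.984 to 1.34. Neither LOXL3 nor AUP1 passed the test in TNF-α against medium or with bufotenidine. AUP1 with bufotenidine (66.7 to 70.6 FPKM) lay above TNF-α without overlap, by 0.21 on the log2 scale, and passed in the fit to the 2 groups alone (limma adjusted p = 0.045). Of the other genes within 20000 bases of HTRA2, DOK1 (mean 3.14 FPKM) differed by -0.017 in the knockdown against TNF-α and did not pass in any comparison, nor did DQX1 (0.146 FPKM), and TLX2 (0.0312 FPKM) was under the filter.

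**Figure D3:**
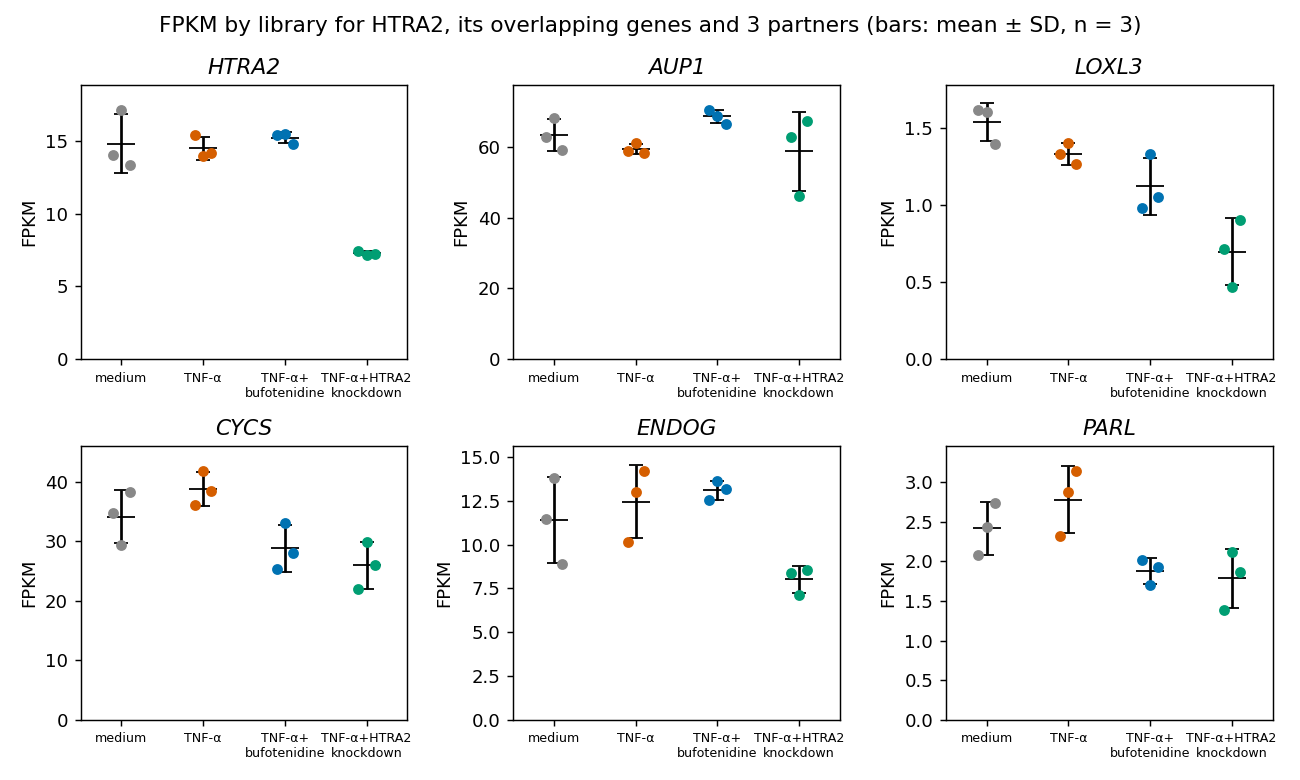
FPKM in each library (points) with the mean and SD of 3 libraries (bars) for HTRA2, the overlapping genes AUP1 and LOXL3, and the partners CYCS, ENDOG and PARL, on linear axes from 0. Knockdown libraries lie below all TNF-α libraries for HTRA2, LOXL3, CYCS, ENDOG and PARL, and on both sides of them for AUP1.

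In the knockdown, 4 of the 10 genes were lower than with TNF-α alone at an adjusted p under 0.05 (HTRA2, CYCS, ENDOG and PARL), and 0 were higher. Over all 18079 genes tested, 8.08% were lower and 17.4% were called in either direction. The 3152 calls behind that share fell to 2000 without knockdown replicate 1 and to 2053 without TNF-α replicate 2. HTRA2 was the target, so 3 of the other 9 genes were called. The count was 3 to 5 under 10 other settings, and it was 2 without TNF-α replicate 2 and 2 without TNF-α replicate 3, where ENDOG and PARL were lost. Groups did not overlap, with the knockdown lower, for 5 of the 10 (these 4 and AIFM1), against 16.4% of all genes. The median log2 difference of the 10 genes was -0.15, beside -0.0034 over all genes. At an unadjusted p under 0.05 there were 5 of the 10, beside 31.1% of all genes. The study's rule for a changed gene asks for a 2-fold difference and an unadjusted p no higher than 0.05. It took 4.23% of all genes and 0 of the 10, because the HTRA2 difference of -0.98 fell short of 2-fold.

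CYCS (ENSG00000172115, chr7:25120091-25125361, minus strand) encodes cytochrome c, which carries electrons in the respiratory chain and triggers the apoptosome once released. It measured 36.1, 41.9 and 38.5 FPKM in TNF-α and 22.0, 29.9 and 26.0 in the knockdown. Every knockdown library was lower than every TNF-α library, and the mean went from 38.8 ± 2.90 to 26.0 ± 3.98 FPKM (SD, n = 3 libraries). CYCS fell by 0.59 (SE 0.13) on the log2 scale, with a limma adjusted p of 0.0097. The bufotenidine libraries, at 25.3, 33.1 and 28.0, also lay below all TNF-α libraries, with a log2 difference of -0.44 that missed the threshold (limma adjusted p = 0.13). Between the knockdown and bufotenidine groups the difference in CYCS was -0.15, with a 95% confidence interval of -0.44 to 0.14. The table also holds 40 rows named as CYCS pseudogenes, which together took 45 to 118 reads per library beside 3535 to 6394 on CYCS, and how reads that match several copies were treated is not given in the sources used here.

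APAF1 (ENSG00000120868, chr12:98645141-98735433, plus strand) is the scaffold on which cytochrome c assembles the apoptosome. It measured 2.47, 2.78 and 2.91 FPKM in TNF-α, 2.67, 3.13 and 2.37 in the knockdown and 2.38, 2.26 and 2.89 with bufotenidine. The groups overlapped in all comparisons, and the knockdown difference on the log2 scale had a 95% confidence interval of -0.28 to 0.27.

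ENDOG (ENSG00000167136, chr9:128818474-128822677, plus strand) encodes endonuclease G, a mitochondrial nuclease that can cut nuclear DNA after its release. TNF-α libraries measured 10.1, 13.0 and 14.2 FPKM, bufotenidine libraries 12.5, 13.6 and 13.2, and knockdown libraries 8.37, 7.14 and 8.57. The knockdown was below both groups without overlap. Medium libraries, at 11.5, 13.8 and 8.91 FPKM, also lay above all knockdown libraries. ENDOG fell by 0.62 (SE 0.15) against TNF-α on the log2 scale (limma adjusted p = 0.016) and by 0.70 against bufotenidine (adjusted p = 0.011). The first call was lost without TNF-α replicate 2 (fall of 0.58, adjusted p = 0.061) and without TNF-α replicate 3 (0.52, adjusted p = 0.067), whereas the second held with each library left out.

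AIFM1 (ENSG00000156709, chrX:130129362-130165887, minus strand) encodes apoptosis-inducing factor, a flavoprotein that supports respiratory chain assembly and acts on chromatin when released. It measured 19.2, 19.4 and 18.2 FPKM in TNF-α, 18.0, 18.1 and 16.8 with bufotenidine, and 16.7, 15.8 and 17.4 in the knockdown. Medium, at 18.0, 19.5 and 16.7 FPKM, overlapped both TNF-α and the knockdown. Although each knockdown library lay below each TNF-α library, the log2 difference of -0.19 did not pass (limma adjusted p = 0.092). It passed under 1 of the 10 other settings, quantile scaling (limma adjusted p = 0.043).

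PARL, an intramembrane protease of the inner mitochondrial membrane, measured 2.32, 2.87 and 3.15 FPKM in TNF-α, 2.02, 1.70 and 1.92 with bufotenidine, and 1.38, 2.11 and 1.86 in the knockdown. The TNF-α libraries lay above all bufotenidine and knockdown libraries. Medium, at 2.07, 2.43 and 2.74 FPKM, overlapped both TNF-α and the knockdown. PARL fell by 0.62 (SE 0.17) in the knockdown on the log2 scale (limma adjusted p = 0.023), and the call was lost in a fit to the 2 groups alone (adjusted p = 0.083) and without TNF-α replicate 2 (0.076), TNF-α replicate 3 (0.087) or knockdown replicate 1 (0.092). With bufotenidine its log2 difference of -0.53 did not pass (adjusted p = 0.13, limma), and knockdown and bufotenidine differed by -0.087 with a 95% confidence interval of -0.45 to 0.27.

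HAX1 (ENSG00000143575, chr1:154272511-154275875, plus strand) encodes an anti-apoptotic adaptor in mitochondria. It measured 49.5, 50.6 and 48.2 FPKM in TNF-α, 57.8, 56.7 and 53.2 with bufotenidine, and 49.3, 40.4 and 48.9 in the knockdown. Knockdown libraries overlapped those with TNF-α alone and lay below those with bufotenidine, where HAX1 fell by 0.28 (limma adjusted p = 0.046). That call held without knockdown replicate 3 and was lost without each of the other 5 libraries compared, and without knockdown replicate 2 the fall was 0.19 (adjusted p = 0.14).

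XIAP (ENSG00000101966, chrX:123859724-123913979, plus strand), the caspase inhibitor that HTRA2 and DIABLO antagonize, measured 5.20, 4.49 and 5.52 FPKM in TNF-α, 4.05, 4.14 and 4.09 with bufotenidine, and 4.49, 5.49 and 4.20 in the knockdown. Its log2 difference with bufotenidine was -0.30 (95% confidence interval -0.67 to 0.074, limma adjusted p = 0.35), although all bufotenidine libraries were below all TNF-α libraries. In the knockdown the difference from TNF-α was -0.10, with an interval of -0.47 to 0.27. Medium, at 5.02, 3.28 and 5.61 FPKM, overlapped TNF-α, bufotenidine and the knockdown.

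HTRA1 (ENSG00000166033, chr10:122458551-122514908, plus strand), a secreted protease of the same family, was near the limit of detection. It had 1 to 28 reads per library, with 18, 8 and 28 in the knockdown and 15, 8 and 4 in TNF-α. The log2 difference in the knockdown was 0.55 with a 95% confidence interval of -0.38 to 1.48, so neither a change nor its absence could be read at this depth. The DIABLO row that was tested held 48, 32 and 48 reads in the knockdown and 36, 27 and 25 in TNF-α, with a log2 difference of 0.29 and an interval of -0.34 to 0.91.

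TNF-α against medium left the set without a call. By limma 0 of the 10 genes passed an adjusted p under 0.05, beside 4.10% of all genes tested (3.22% higher, 0.885% lower), and 0 passed an unadjusted p under 0.05, which 14.8% of all genes did. The study's rule took 0 of the 10 and 2.73% of all genes. Limma voom on the recovered reads also called 0. HAX1 was the 1 gene whose groups did not overlap, lower with TNF-α (48.2 to 50.6 FPKM against 51.2 to 59.6), which 8.74% of all genes also were. HTRA2 differed from medium by -0.025 on the log2 scale, with a 95% confidence interval of -0.21 to 0.16, and CYCS, at 34.8, 29.4 and 38.3 FPKM in medium, by 0.19 with an interval of -0.098 to 0.48.

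Bufotenidine added to TNF-α gave 0 calls among the 10 genes, beside 0.0387% of all genes (0.0332% higher, 0.00553% lower). The study's rule took 0 of the 10 and 1.50% of all genes. At an unadjusted p under 0.05 there were 2 (CYCS and PARL, both lower with bufotenidine), against 20.1% of all genes, and voom called 0. HAX1 lay above TNF-α without overlap, as 16.3% of all genes did, and CYCS, PARL, AIFM1 and XIAP lay below without overlap, as 15.5% did. The RNA of HTRA2, the protein the study proposes as the target of the compound, differed from TNF-α by 0.072 with a 95% confidence interval of -0.12 to 0.26. This comparison and the one of the knockdown use the same 3 TNF-α libraries, so the values of CYCS and PARL in them are not independent.

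The knockdown was therefore also set against bufotenidine, a comparison without the TNF-α libraries. Of the 10 genes, 3 were lower (HTRA2, ENDOG and HAX1) and 0 higher, beside 7.43% lower, 7.85% higher and 15.3% called in either direction over all genes. The same 3 passed an unadjusted p under 0.05, as 29.7% of all genes did. HTRA2 met the study's rule, which 3.19% of all genes met. Groups did not overlap for these 3, with the knockdown lower, beside 17.6% of all genes. HTRA2 was the target, so the calls and the lower groups without overlap among the other members were those of ENDOG and HAX1. The HAX1 call held in 1 of the 6 fits with a library left out. LOXL3 fell by 0.64 (limma adjusted p = 0.042), a call that held without knockdown replicate 3 and was lost without each of the other 5 libraries, with adjusted p-values up to 0.15. AUP1 differed by -0.24 and did not pass (adjusted p = 0.18, limma). XIAP was higher without overlap, as 18.2% of all genes were, and did not pass the test. With 3 libraries a group, an exact two-sided permutation test of a single gene cannot give a p below 0.1, the value HTRA2 had in both comparisons of the knockdown.

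**Figure D4:**
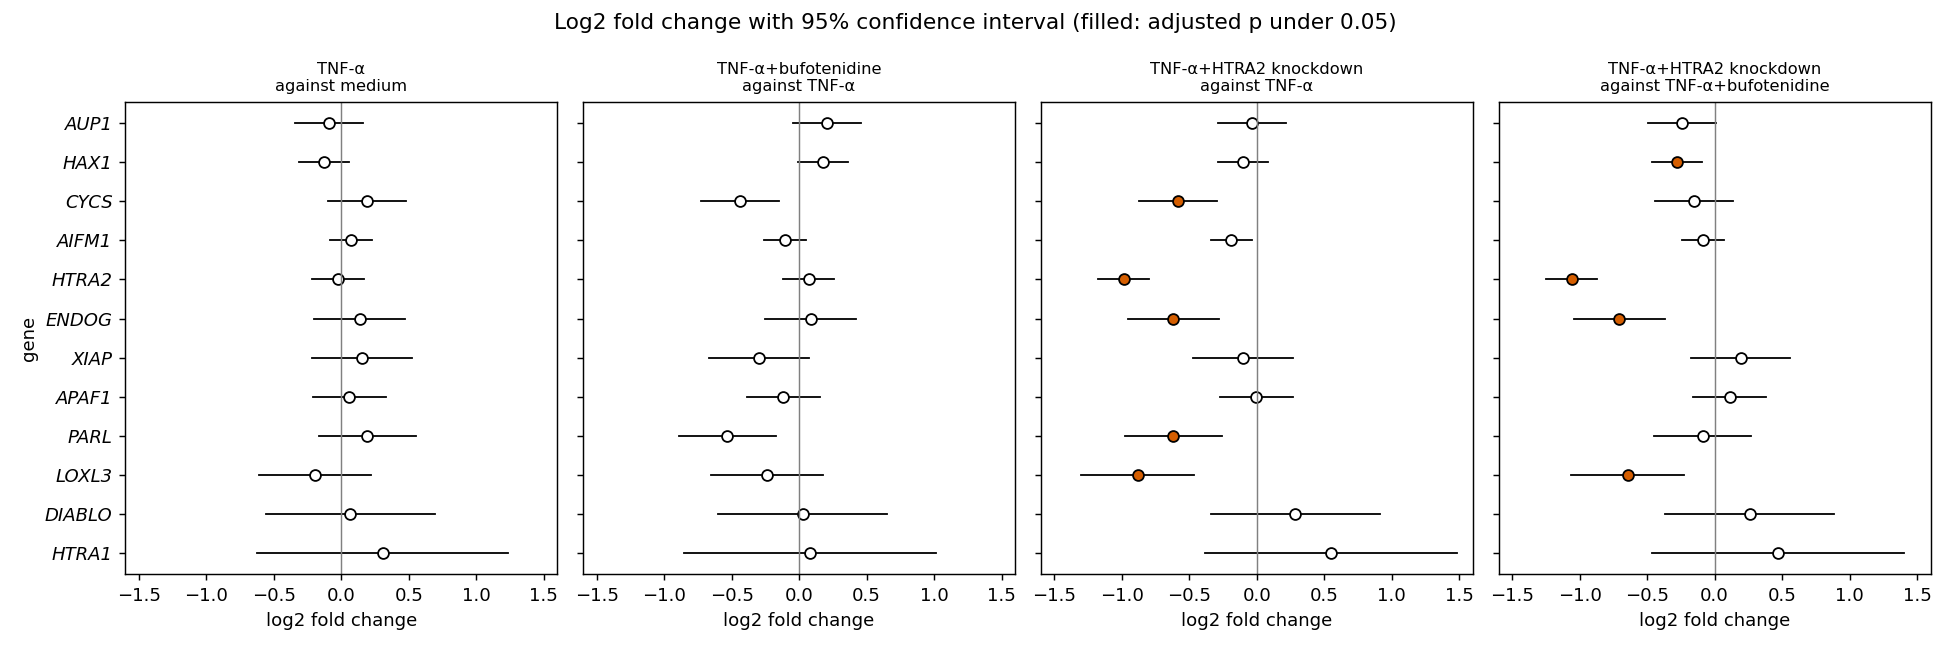
Log2 fold change on the log2(FPKM + 0.1) scale (x axis) with its 95% confidence interval for the 10 genes, AUP1 and LOXL3 in the 4 comparisons, filled where the adjusted p is under 0.05. Filled points stand at HTRA2, CYCS, ENDOG, PARL and LOXL3 in the knockdown against TNF-α, at HTRA2, ENDOG, HAX1 and LOXL3 against bufotenidine, and nowhere in the other 2 panels.

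Sequences upstream of the members called beside HTRA2 are given because these nuclear genes for mitochondrial proteins were lower in the knockdown than with TNF-α, with AIFM1 added as a gene that shares a motif with CYCS. Each window holds the part of the 250 bases before the RefSeq start (GRCh38.p14) that lies outside annotated exons of the gene and outside any annotated untranslated region, and all are written 5′ to 3′ on the gene's strand. They stand at chr7:25125362-25125510 (CYCS), chrX:130165888-130166091 (AIFM1), chr9:128818250-128818473 (ENDOG) and chr3:183884934-183885130 (PARL), the last of which lies in exons of the pseudogene RPSAP31. Capitals mark GCATGCGC, a core of the site of NRF-1, a factor known for nuclear genes of mitochondrial proteins.

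CYCS: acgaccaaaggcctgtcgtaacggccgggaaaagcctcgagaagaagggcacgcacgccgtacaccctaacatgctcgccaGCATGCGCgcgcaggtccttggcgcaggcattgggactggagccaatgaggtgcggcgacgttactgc
AIFM1: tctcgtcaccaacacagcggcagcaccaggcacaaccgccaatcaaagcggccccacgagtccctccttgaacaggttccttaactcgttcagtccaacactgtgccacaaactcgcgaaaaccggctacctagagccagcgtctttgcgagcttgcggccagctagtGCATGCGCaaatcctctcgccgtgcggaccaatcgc
ENDOG: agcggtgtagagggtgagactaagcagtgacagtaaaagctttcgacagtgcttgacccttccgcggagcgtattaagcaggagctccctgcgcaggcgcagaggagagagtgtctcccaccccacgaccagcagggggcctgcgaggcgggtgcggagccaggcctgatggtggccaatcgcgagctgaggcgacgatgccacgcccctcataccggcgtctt
PARL: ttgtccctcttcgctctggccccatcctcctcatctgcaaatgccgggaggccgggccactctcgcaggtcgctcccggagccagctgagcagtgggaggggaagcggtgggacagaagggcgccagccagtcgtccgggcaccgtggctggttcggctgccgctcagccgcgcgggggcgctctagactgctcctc

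The 10 genes have 16 RefSeq windows of 250 bases, since some have several starts. GCATGCGC, searched on both strands, stood in 2 of the 16, those of CYCS and AIFM1, and in 2.63% of 35116 such windows over all genes. Of these 2 genes CYCS was called lower in the knockdown against TNF-α. AIFM1 was lower without overlap of the groups (log2 difference -0.19) and did not pass. ENDOG and PARL, which were also called lower, hold no GCATGCGC in their windows. The letters CCAAT stood in 7 of the 16 windows (32.0% of all windows) and TATAAA in 0 of the 16 (10.7% of all windows). None of the 3 motifs contains another, all were searched on both strands, and a match describes the letters alone.

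The wider machinery was read from 44 further genes in lists of HTRA, IAP, caspase, PARL-related, mitochondrial protease and cytochrome c-related genes, of which 40 were tested. In the knockdown against TNF-α 4 were higher and 7 lower, beside 9.35% higher and 8.08% lower over all genes. The median log2 difference of the 40 genes was -0.13. Bufotenidine gave 0 calls among them by limma, with 9 of 40 at an unadjusted p under 0.05, near the 20.1% of all genes, and 1 called by voom, which called 236 of all 18079 genes. TNF-α against medium gave 2 calls, both higher, beside 4.10% of all genes. Of the 11 calls in the knockdown, 4 held with each library left out and 7 did not (highest adjusted p 0.17).

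In the knockdown against TNF-α the list of the IAP family and XAF1 had 3 higher and 0 lower of 6 tested. The 3 were BIRC3, BIRC6 and XAF1. Over all genes 9.35% were higher and 8.08% lower. BIRC3, an IAP protein and NF-κB target, measured 0.553, 0.427 and 0.827 FPKM in medium and 4.83, 4.73 and 5.39 in TNF-α, and rose by 2.89 on the log2 scale with TNF-α. In the knockdown it measured 8.27, 11.3 and 7.62 FPKM and rose by a further 0.83 (limma adjusted p = 0.022). That second call was lost without TNF-α replicate 1, TNF-α replicate 2 or knockdown replicate 2, with adjusted p-values up to 0.074.

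XAF1, an XIAP-binding protein induced by interferon, had 15 to 23 reads per library in TNF-α and 245 to 361 in the knockdown. Its FPKM was 0.0742, 0.0727 and 0.0932 against 1.51, 1.09 and 1.02, with a wide gap between the groups. XAF1 rose by 2.84 (limma adjusted p = 6.3e-05), a size that depends on the pseudocount and ran from 1.02 to 3.85 over the other settings. BIRC6, a giant IAP protein that is itself a substrate of HTRA2, measured 3.29, 2.44 and 2.29 FPKM in TNF-α and 4.08, 3.89 and 3.57 in the knockdown, and rose by 0.52 (adjusted p = 0.018, limma). The BIRC6 call was lost without TNF-α replicate 2, TNF-α replicate 3 or knockdown replicate 1, with limma adjusted p-values up to 0.074.

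Among the 9 genes of the caspase and apoptosome list that are reported here, 2 fell, CYCS and DFFA, beside 8.08% lower over all genes. DFFA, the inhibitor and chaperone of the caspase-activated DNase, measured 16.01, 17.9 and 16.7 FPKM in TNF-α and 11.2, 11.5 and 12.7 in the knockdown, and fell by 0.51 (adjusted p = 0.00035, limma). The DFFA call held with each library left out, and also against bufotenidine, where the log2 difference was -0.34.

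The PARL-related list had 3 lower of 9, PARL included, and the mitochondrial proteases 4 lower of 15, HTRA2 and PARL included. Neither list had a gene called higher, and over all genes 8.08% were lower and 9.35% higher. PGAM5, a mitochondrial phosphatase that PARL cleaves, fell by 0.35 (limma adjusted p = 0.036), and STARD7, a lipid carrier that PARL also processes, by 0.28 (0.028). AFG3L2, a subunit of the matrix AAA protease, fell by 0.34 and IMMP1L, a subunit of the inner membrane peptidase, by 0.39. These 4 calls were each lost without TNF-α replicate 2 and without knockdown replicate 1, and all but IMMP1L also without 1 or 2 further libraries, with limma adjusted p-values up to 0.13. LACTB, a filament-forming protease, rose by 1.08 with TNF-α (4.83 to 10.3 mean FPKM, limma adjusted p = 0.00030), and its level in the knockdown did not pass against TNF-α.

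The AIFM1 and cytochrome c list had 1 higher and 4 lower of 10, ENDOG and CYCS included, beside 9.35% higher and 8.08% lower over all genes. CHCHD4, the AIFM1-dependent oxidoreductase that imports cysteine-rich proteins, measured 11.2, 12.7 and 10.7 FPKM in TNF-α and 8.88, 7.53 and 9.03 in the knockdown, and fell by 0.44 (SE 0.084, limma adjusted p = 0.0038). HCCS, which attaches heme to cytochrome c, fell by 0.30 (0.048), a call lost without 4 of the 6 libraries (all but TNF-α replicate 1 and knockdown replicate 2). The paralog AIFM3 was low, at 0.278, 0.291 and 0.238 FPKM in TNF-α and 0.677, 0.503 and 0.523 in the knockdown. The knockdown was higher than TNF-α by 0.85 (adjusted p = 0.0078, limma). In medium AIFM3 measured 0.540, 0.456 and 0.397 FPKM, above all TNF-α libraries and overlapping the knockdown. The log2 difference of TNF-α from medium was -0.61 and did not pass (limma adjusted p = 0.10). With bufotenidine AIFM3 measured 0.663, 0.657 and 0.546 FPKM, a log2 difference of 0.97 from TNF-α that did not pass (adjusted p = 0.075, limma).

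**Figure D5:**
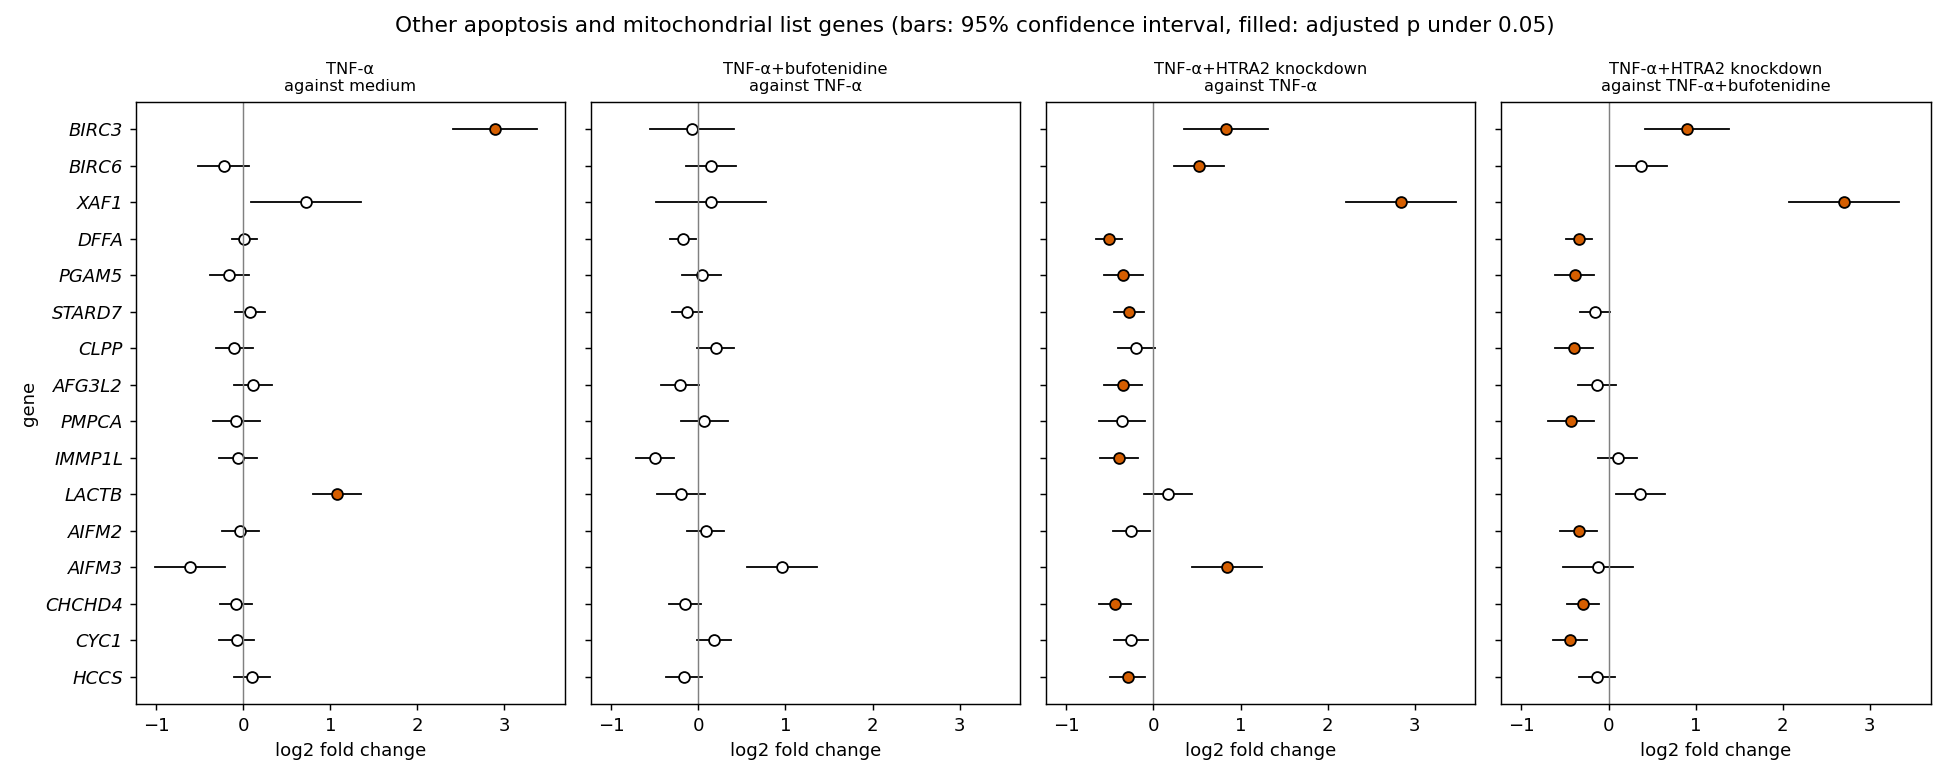
Log2 fold change (x axis) with its 95% confidence interval for the 16 list genes called in at least 1 comparison, filled where the adjusted p is under 0.05. BIRC3 and LACTB are filled for TNF-α against medium, none for bufotenidine, 11 for the knockdown against TNF-α and 9 for the knockdown against bufotenidine.

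Against bufotenidine the knockdown had 2 of these 40 genes higher (XAF1 and BIRC3) and 7 lower, beside 7.85% higher and 7.43% lower over all genes. The 7 were DFFA, CHCHD4, PGAM5, the cytochrome c1 gene CYC1 (-0.45), the matrix protease subunit CLPP (-0.40), the matrix processing peptidase subunit PMPCA (-0.43) and AIFM2 (-0.34), the last 4 with their log2 differences. Of these 9 calls, those of XAF1, DFFA and CYC1 held with each library left out, and the other 6 were lost without knockdown replicate 2, without bufotenidine replicate 1 and without bufotenidine replicate 2.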

How the data were processed

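RNA of 12 NCM460 libraries was measured by poly(A) RNA sequencing with a kit that does not mark strand. The authors deposited FPKM per gene, with the gene length used. The submitters' processing notes name CASAVA 1.8, HISAT2 2.0.4, HTSeq 0.9.1 and hg38, without their roles. Positions and lengths of all genes equalled the merged exons of GENCODE 29. FPKM times gene length, scaled by a divisor inferred for each library from the steps between low values, gave whole reads for 100% of values within 0.05 of a whole number, beyond the rounding of the deposited FPKM. FPKM was tested as log2(FPKM + 0.1) over 18079 genes with a mean of at least 0.1, by limma 3.58.1 (R 4.3.3) with a mean-variance trend over all 4 groups (8 residual degrees of freedom), with Benjamini-Hochberg adjustment over all of them and a threshold of 0.05. Fold changes of low genes are understated on that scale.

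The members, lists and tests were chosen with earlier results of these data known. Named genes were the members, AUP1, LOXL3, up to 20 called list genes, genes within 20000 bases of HTRA2, and the 5 genes most and least like HTRA2. Results for some genes that this rule names are not reported here, and the list counts leave out 1 gene for that reason, a removal made after its values were seen. Shared exon bases were counted irrespective of strand. Sequences are from RefSeq (GRCh38.p14), and all 10 members matched. The alternatives were other pseudocounts (1 and 0.01), filters, scalings, the 2 groups alone, no trend, voom on the recovered reads, a replicate block and each library left out. Scripts were tested on simulated data. Python 3.11.15, numpy 2.4.6, pandas 2.3.3, scipy 1.17.1 and matplotlib 3.10.9 were used.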

Additional observations from a re-analysis of the deposited data

How the results depend on the processing

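Counts of members called were within 1.5 times of those reported under all 10 alternatives that kept every library. With each library left out, the knockdown against TNF-α gave 2 to 4. The log2 difference of APAF1 in the knockdown against TNF-α turned to 0.00037 under median of ratios scaling. With 1 library left out, differences that had passed no test changed sign. For TNF-α against medium the ranges were -0.097 to 0.084 for HTRA2, -0.028 to 0.29 for ENDOG, -0.070 to 0.31 for XIAP and -0.080 to 0.16 for DIABLO. For bufotenidine they were -0.053 to 0.19 for ENDOG, -0.056 to 0.093 for DIABLO and -0.16 to 0.30 for HTRA1. For the knockdown they were -0.11 to 0.087 for APAF1 and -0.14 to 0.13 for AUP1 against TNF-α, and -0.21 to 0.078 for PARL against bufotenidine. The cause was not tested.

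Over all genes, TNF-α against medium had 742 calls and 392 in the 2 groups alone. Bufotenidine had 7, and 911 in the 2 groups alone, 236 by voom, 127 among genes of mean FPKM at least 1, 4 under quantile scaling, 3 with a pseudocount of 1 and 1 without the trend. With a library left out, the knockdown had 2000 to 3341 calls against TNF-α (3152 with all) and 1313 to 2699 against bufotenidine (2762 with all). Calls higher with TNF-α were 78.4% of the total, and 68.4% by voom.

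Same-numbered libraries did not deviate together (correlations of -0.052 to 0.038), so no pairing by number was visible. These values cannot show whether the numbers were matched in the design. With the replicate block the members called were 0, 0, 4 and 2 in the 4 comparisons, HAX1 against bufotenidine being lost (adjusted p = 0.085, limma), and bufotenidine had 1 call over all genes. Depth limits DIABLO (16 to 48 reads) and HTRA1 (1 to 28 reads).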

Other observations

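Genes whose levels followed HTRA2 most closely over the 12 libraries, among 11184 genes of mean FPKM at least 1, were FBL (Pearson r = 0.979), SNHG17 (0.979), ARRDC1-AS1 (0.976), ADD1 (0.973) and SLC25A4 (0.972). FBL, the methyltransferase fibrillarin of the nucleolus, had a mean of 82.6 FPKM in medium and 56.8 in the knockdown. Among the most opposed were PARP9 (-0.977), LIPH (-0.976), IFIT3 (-0.972) and NTN4 (-0.970). IFIT3, an interferon-induced gene, had a mean of 26.9 FPKM in TNF-α and 55.4 in the knockdown.

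The 12 HTRA2 values fall into separate ranges, 7.18 to 7.44 FPKM in the knockdown and 13.3 to 17.2 elsewhere, so these coefficients mainly rank genes by the knockdown, and they are given as a description. In the 9 libraries outside the knockdown the coefficient was 0.713 for FBL, 0.808 for ARRDC1-AS1, 0.329 for ADD1, -0.496 for PARP9 and -0.0903 for LIPH. Among the members, ENDOG had 0.840 over the 12 libraries, HAX1 0.715 and AIFM1 0.668. CYCS had 0.494 over the 12 libraries and -0.628 over the 9, and XIAP had -0.243 and -0.809.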
